A study of Mus musculus with 8 samples.

Results

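The 10 genes described here are imprinted genes of the mouse: Nnat, H19, Igf2, Dlk1, Meg3, Peg3, Zim1, Plagl1, Peg10 and Cdkn1c. They were chosen by name, with earlier results of these data known for Nnat and Zim1, and taken as the rows of the expression table with these symbols, 10 of its 30387 genes. RNA came from white adipocytes isolated from epididymal white adipose tissue, the visceral fat depot beside the testis. The mice were WT littermates and Ad-Yap/Taz-KO mice (Adipoq-Cre with floxed alleles of Yap and Taz), in which the adiponectin promoter drives Cre, so that the alleles are deleted in cells that use this promoter. The latter are called the knockout below. Whether the WT mice also carried the floxed alleles, without Cre, is not given in the sources used here for this cross, and the study used males unless it said otherwise. Both genotypes were fed a standard diet (SD, called normal chow in the sample descriptions) or a high-fat diet (HFD) for 4 weeks, from week 5 of age in the design text, while the study's general methods put the start a week later. The 4 groups were WT on SD, Ad-Yap/Taz-KO on SD, WT on HFD and Ad-Yap/Taz-KO on HFD, with 2 libraries each.

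Imprinting is the expression of a gene from only the maternal or only the paternal copy. The choice is set by DNA methylation laid down in egg or sperm at control regions, and neighbouring genes of one domain are often expressed from opposite copies. Many paternally expressed genes promote growth of the fetus and placenta and many maternally expressed genes restrain it, and several members of this family are used in fat cells. YAP and TAZ are transcriptional coactivators of the Hippo pathway that reach DNA through TEAD factors. The libraries measured total RNA of a gene and did not separate its maternal from its paternal copy, so nothing below bears on imprinting itself.

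Values are normalized counts, which the authors obtained by scaling each library with a size factor and rounding. A gene is called where limma on log2(normalized count + 1) gives a p of 0.05 or less after Benjamini-Hochberg adjustment over 18800 tested genes, and a log2 fold change of 0.59 or more, up or down. On this scale the change of low genes is understated. Standard errors come from the same fit. All 10 members passed the filter on low values, a mean of 5 over the 8 libraries, Dlk1 and H19 with means of 11.6 and 8.75. The libraries held 14.0 to 22.3 M reads on genes. An exact permutation test of 2 libraries against 2 cannot give a p below 0.333, so the p-values rest on the fit across genes. In genes with 1000 to 5000 normalized counts the WT libraries on HFD differed less from each other than other pairs did. Their squared difference was 5.87 times the Poisson expectation, against 25.8 to 82.8 times in the other groups, so each call that rests on them was repeated with both averaged to 1 sample. Where averaging or leaving out a library left a group with 1 sample, the spread came from the other groups and that sample was assumed to vary like them. The targeted gene Wwtr1 (TAZ) was lower in the knockout on both diets, with log2 fold changes of -1.24 on SD (adjusted p = 0.00097) and -1.56 on HFD (adjusted p = 3.1e-05). For Yap1 they were -0.71 (adjusted p = 0.024, called in 11 of 20 alternatives) and -0.42 (adjusted p = 0.059, not called).

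The cell types in the libraries were checked with marker genes. All 8 adipocyte markers were above 0 in every library, and their summed level was 175007 and 189542 normalized counts in WT, against 143619 and 206662 in the knockout on SD. On HFD it was 332487 and 325697 in WT and 158792 and 78957 in the knockout. Of the adipocyte markers, 0 of 8 were called in Ad-Yap/Taz-KO against WT on SD and 7 of 8 were called lower on HFD, with a median log2 fold change of -1.54. Markers of fibroblasts and adipocyte progenitors summed to 30270 to 36559 in WT and 36407 to 57917 in the knockout on SD, and to 26661 to 27004 and 82840 to 87868 on HFD, where 8 of 11 were called higher. Macrophage markers were called higher in the knockout on both diets, 8 of 8 each time. They summed to 4707 and 4749 in WT and to 16016 and 28550 in the knockout on SD, and to 2159 and 2256 against 29008 and 30752 on HFD. Endothelial markers summed to 28460 and 23312 in WT and to 21449 and 12110 in the knockout on SD, with 0 of 7 called, and to 14229 and 14656 against 18509 and 28391 on HFD, with 2 of 7 called higher. None of the progenitor, macrophage or endothelial markers was at 0 in any library. In such mixed RNA, fewer cells of a type and less RNA per cell cannot be told apart, and the part of these shifts in the changes below was not tested.

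Nnat, Peg3, Zim1 and Plagl1 were the 4 members called lower in the knockout on SD. The 250 bases before the RefSeq start of each (GRCm38.p6) are shown because these are the members called on SD. The genes were picked by that readout, so what their windows share is a description only. Capitals mark GGAATG, a core of the TEAD motif, or CATTCC, its reading on the other strand.
Nnat (chr2:157559828-157560077, plus strand): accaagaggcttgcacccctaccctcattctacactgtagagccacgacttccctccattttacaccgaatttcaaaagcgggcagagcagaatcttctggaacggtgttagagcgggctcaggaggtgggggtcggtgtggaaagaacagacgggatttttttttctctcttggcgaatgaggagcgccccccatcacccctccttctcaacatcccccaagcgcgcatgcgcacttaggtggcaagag
Peg3 (chr7:6730420-6730669, minus strand): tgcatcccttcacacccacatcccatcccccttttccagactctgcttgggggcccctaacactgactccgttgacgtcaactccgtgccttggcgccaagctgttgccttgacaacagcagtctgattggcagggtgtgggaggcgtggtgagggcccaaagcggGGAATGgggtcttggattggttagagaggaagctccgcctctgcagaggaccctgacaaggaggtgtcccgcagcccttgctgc
Zim1 (chr7:6696433-6696682, minus strand): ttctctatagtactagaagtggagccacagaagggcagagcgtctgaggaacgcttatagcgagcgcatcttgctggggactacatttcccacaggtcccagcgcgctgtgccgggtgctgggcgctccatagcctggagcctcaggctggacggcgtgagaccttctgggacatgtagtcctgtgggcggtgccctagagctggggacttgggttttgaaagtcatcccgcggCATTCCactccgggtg
Plagl1 (chr10:13090582-13090831, plus strand): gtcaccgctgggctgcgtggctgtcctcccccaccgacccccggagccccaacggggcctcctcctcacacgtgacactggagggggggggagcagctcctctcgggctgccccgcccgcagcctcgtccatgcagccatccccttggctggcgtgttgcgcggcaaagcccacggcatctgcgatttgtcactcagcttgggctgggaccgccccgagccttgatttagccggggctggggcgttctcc
The Peg3 and Zim1 windows hold 1 match each, 84 and 16 bases before the RefSeq start, and the Nnat and Plagl1 windows hold 0. For Zim1 the RefSeq start lies inside the gene span given below, and so does the match. Among the other members with an entry, the Dlk1 window and both Meg3 windows hold 0 matches, and the 4 windows of Igf2 hold 0, 2, 1 and 1. Of 32851 windows of this length, 12.6% hold the motif on either strand. A match is a description of the letters and no sign of binding, and these windows leave out more distant sites. The 4 windows hold 12 CpG dinucleotides in Nnat, 8 in Peg3, 14 in Zim1 and 19 in Plagl1, against a median of 6 over all windows. Members not called on SD had 8 in Dlk1, 10 and 0 in Meg3 and 1, 10, 22 and 6 in Igf2, so values above and below the median occur there too.

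Nnat (ENSMUSG00000067786) encodes neuronatin, a small membrane protein best known from brain and endocrine cells, and is paternally expressed. It lies on chromosome 2 (157560078 to 157562522, plus strand, GRCm38), within the span of Blcap on the opposite strand, with no shared exon bases. In WT adipocytes it was among the most abundant transcripts per kilobase of exon, at rank 108 of 30259 genes on SD and 89 on HFD. The WT libraries on SD held 6179 and 6069 normalized counts and the knockout libraries 269 and 166. On HFD the WT libraries held 9019 and 9292 and the knockout libraries 214 and 328. Every knockout library was thus far below every WT library, with no overlap on either diet. Nnat was 28.8-fold lower on SD (log2 fold change -4.85, standard error 0.23, adjusted p = 6.7e-07) and 34.4-fold lower on HFD (-5.11, standard error 0.23, adjusted p = 3.1e-08). Both calls held under all alternatives, with the WT HFD libraries averaged included (adjusted p = 1e-05 on HFD). Beside it, the adipocyte markers had a median log2 fold change of -1.54 on HFD, with the lowest at -4.45 (Lep, the gene for the fat hormone leptin), and 0 of 8 were called on SD. Per kilobase it dropped to rank 4833 in the knockout on SD. The diet effect in WT was 0.58 (standard error 0.23, adjusted p = 0.097), or 0.17 (adjusted p = 0.7) with libraries scaled to the same total, and the 95% interval of the difference between the knockout effects on HFD and SD ran from -0.97 to 0.46.

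**Figure D1:**
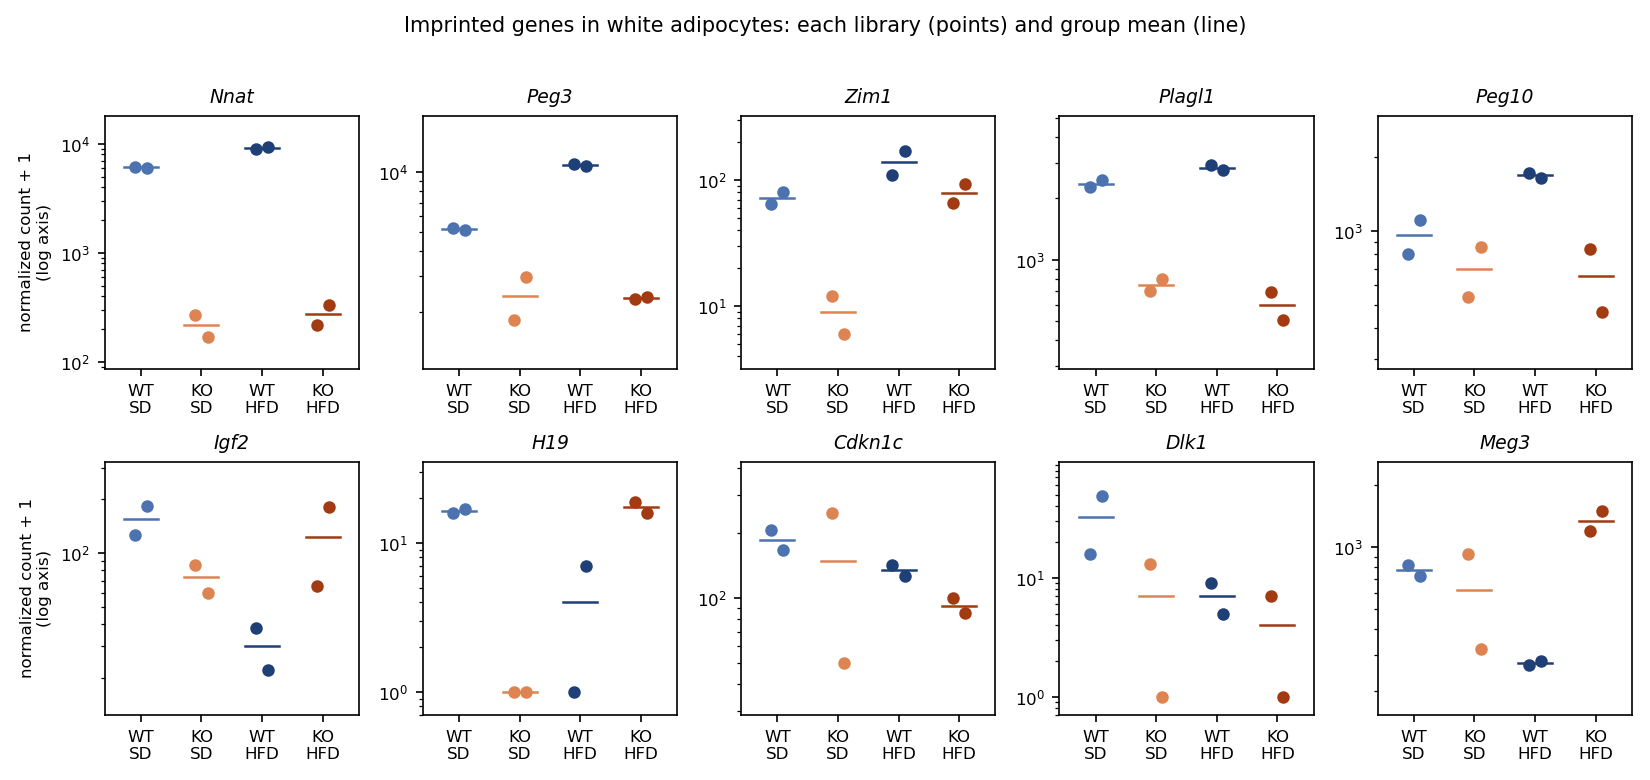
Normalized count + 1 of each of the 10 imprinted genes on a log axis, by group (KO, Ad-Yap/Taz-KO), where each point is 1 library and each line the mean of 2. Nnat sits between 6069 and 9292 in WT and between 166 and 328 in the knockout, whereas Meg3 is highest in the knockout on HFD, at 1200 and 1497.

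Blcap, which encodes an apoptosis-inducing factor and gives rise to maternal transcripts in brain, surrounds Nnat. It held 884 and 960 normalized counts in WT, against 659 and 697 in the knockout on SD, and 1194 and 1431 against 579 and 507 on HFD. Its log2 fold change was -0.44 on SD (adjusted p = 0.2, not called) and -1.27 on HFD (standard error 0.17, adjusted p = 0.00013). The difference between these effects was also called (-0.83, adjusted p = 0.034), though in only 7 of 19 alternatives.

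Peg3 (ENSMUSG00000002265) encodes a large zinc finger protein, paternally expressed, and Zim1 (ENSMUSG00000002266) a neighbouring zinc finger protein, maternally expressed. They lie 7.44 kb apart on chromosome 7, Peg3 at 6703892 to 6730431 and Zim1 at 6671269 to 6696450, both on the minus strand. Peg3 held 5215 and 5129 normalized counts in WT, against 1806 and 2971 in the knockout on SD. On HFD it held 10892 and 10711 in WT and 2315 and 2355 in the knockout. The WT level was thus higher on HFD than on SD, and the Ad-Yap/Taz-KO levels on the 2 diets overlapped. Peg3 was 2.23-fold lower in the knockout on SD (log2 fold change -1.16, standard error 0.20, adjusted p = 0.0035) and 4.62-fold lower on HFD (-2.21, standard error 0.20, adjusted p = 4.5e-06). Without the second WT library on SD, the SD call was lost (-1.17, adjusted p = 0.054). HFD raised Peg3 2.09-fold in WT (1.06, standard error 0.20, adjusted p = 0.0042), or by 0.65 (adjusted p = 0.024) with libraries scaled to the same total. This call ended when the WT HFD libraries were averaged (adjusted p = 0.063), without either of them (0.051 and 0.056) and without the first WT library on SD (0.055). In Ad-Yap/Taz-KO mice the diet effect was 0.01, with a 95% interval from -0.41 to 0.44.

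Zim1 was far scarcer and followed another pattern. It held 64 and 79 normalized counts in WT, against 11 and 5 in the knockout on SD, but 108 and 170 in WT and 65 and 92 in the knockout on HFD. The knockout libraries on SD thus stood alone at the low end. Zim1 was 8.50-fold lower in the knockout on SD (log2 fold change -3.09, standard error 0.49, adjusted p = 0.0023, and 0.058 where the fit held only that pair of groups), whereas on HFD the change was -0.80 (standard error 0.49, adjusted p = 0.23, not called). HFD raised it 9.23-fold in Ad-Yap/Taz-KO mice (3.21, standard error 0.49, adjusted p = 0.012). The second knockout library decided this call on each diet: adjusted p was 0.075 without the one on SD and 0.1 without the one on HFD. It was 0.052 without the second WT library on HFD, 0.16 without a filter on low values and 0.22 where the fit left out WT. Usp29, a paternally expressed deubiquitinase gene of the same domain, reached 13 and 13 normalized counts in WT on HFD and at most 6 elsewhere, and Zfp264 at most 1. Neither was tested.

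Plagl1 (ENSMUSG00000019817) encodes a zinc finger transcription factor that restrains proliferation and is paternally expressed. It lies on chromosome 10 (13060504 to 13131694, plus strand). On SD it held 2264 and 2462 normalized counts in WT, against 695 and 802 in the knockout, and on HFD 2924 and 2748 in WT and 692 and 503 in the knockout. Both genotypes stayed apart on each diet, and within a genotype the values on the 2 diets lay close together. The knockout lowered Plagl1 3.16-fold on SD (log2 fold change -1.66, standard error 0.18, adjusted p = 0.00013) and 4.80-fold on HFD (-2.26, standard error 0.18, adjusted p = 1.6e-06). Both calls held under all alternatives. The difference between them was -0.60 (adjusted p = 0.11), and the diet effect in WT was 0.26 (adjusted p = 0.31).

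Peg10 (ENSMUSG00000092035), a paternally expressed gene of retrotransposon origin that the placenta needs, lies on chromosome 6 (4747306 to 4760517, plus strand). It held 806 and 1103 normalized counts in WT, against 535 and 854 in the knockout on SD, which overlapped. On HFD it held 1716 and 1638 in WT and 840 and 466 in the knockout, which did not. The log2 fold change of Peg10 was -0.48 on SD (adjusted p = 0.42) with a standard error of 0.28. On HFD it was -1.42 (standard error 0.28, adjusted p = 0.0019), a 2.68-fold fall that held under all alternatives. The diet effect in WT was 0.83 (adjusted p = 0.054), not called here but called in 7 of 20 alternatives. Sgce, its paternally expressed neighbour that encodes epsilon-sarcoglycan, held 550 and 734 against 498 and 518 on SD and 1004 and 1242 against 409 and 281 on HFD. It fell by 1.72 on the log2 scale on HFD (adjusted p = 9.9e-05). Of the other domain members, Ppp1r9a, which encodes an actin-binding protein, fell on HFD (-1.55, adjusted p = 4e-04). Asb4 rose from 23 and 35 to 63 and 126 (1.62, adjusted p = 0.038, called in 10 of 19 alternatives). Tfpi2 changed by 0.22 (adjusted p = 0.74).

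Igf2 (ENSMUSG00000048583) encodes insulin-like growth factor 2, a paternally expressed growth factor, and H19 (ENSMUSG00000000031) is a maternally expressed long noncoding RNA with which it shares enhancers. They lie 72.6 kb apart on chromosome 7, Igf2 at 142650766 to 142666816 and H19 at 142575529 to 142578143, both on the minus strand. Igf2 held 126 and 182 normalized counts in WT, against 85 and 59 in the knockout on SD, but 37 and 21 in WT and 64 and 180 in the knockout on HFD. It was thus lower in the knockout on SD and higher on HFD, and the WT libraries on HFD were the lowest of all. The SD difference was -1.09 (standard error 0.50, adjusted p = 0.29, not called). The HFD difference was 1.91 (standard error 0.50, adjusted p = 0.011), a 3.75-fold rise. It dropped to 1.17 (adjusted p = 0.16) without the second knockout library and to 1.51 (adjusted p = 0.1) without the second WT library. With the WT HFD libraries averaged it was 1.85 (adjusted p = 0.056), and with only this pair of groups fitted the adjusted p was 0.052. In WT, HFD lowered Igf2 5.27-fold (log2 fold change -2.40, standard error 0.50, adjusted p = 0.0076), which was lost with those libraries averaged (adjusted p = 0.063). It was also lost without the second WT HFD library (adjusted p = 0.084) or without either WT library on SD (0.058 and 0.075). In the GENCODE vM21 annotation, 62.8% of the Igf2 exon bases also belong to Gm49394 on the same strand. Gm49394 has no row among the genes analysed here, and reads over several genes were not counted, so the Igf2 level is uncertain. Other overlaps in the same annotation were Igf2os at 1.71% of Igf2, Mir675 at 3.41% of H19, Gm23134 at 4.76% of Nnat and Gm26906 at 6.79% of Meg3 exon bases.

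H19 was scarce in all groups. The WT libraries on SD held 15 and 16 normalized counts and the knockout libraries were both listed at 0. On HFD the order was turned around, with 0 and 6 in WT and 18 and 15 in the knockout. A value of 0 allows up to 3 counts per library. Against that floor the WT mean on SD was 5.04-fold higher than the knockout on SD. By the same floor the knockout mean on HFD was 5.36-fold higher than the knockout on SD. The error of the higher mean is left out, so these ratios are not lower limits. Neither knockout effect alone was called, with adjusted p = 0.08 on SD and 0.093 on HFD, nor was the diet effect in the knockout (0.12). Both members of this domain therefore had the lowest WT values on HFD and opposite signs of the knockout difference on the 2 diets. Of these knockout differences only that of Igf2 on HFD was called, and not under all alternatives.

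Cdkn1c (ENSMUSG00000037664) encodes the cell cycle inhibitor p57, is maternally expressed and lies on chromosome 7 (143458339 to 143461050, minus strand). It held 205 and 166 normalized counts in WT, against 246 and 49 in the knockout on SD, and 142 and 126 against 99 and 84 on HFD. The knockout libraries on SD lay far apart and enclosed both WT values. The differences were -0.74 on SD (adjusted p = 0.55) and -0.55 on HFD (adjusted p = 0.47), with 95% intervals from -1.92 to 0.44 and from -1.73 to 0.63. Without the first knockout library on SD the SD difference was called (-1.89, adjusted p = 0.015), and without the second it was 0.41. On the opposite strand, 30.7% of its exon bases also belong to Gm44732, and the sources used here do not say whether reads were counted by strand. Kcnq1ot1, the paternally expressed noncoding RNA that silences this domain, held 2117 to 2873 normalized counts over the 8 libraries (0.15 on HFD, adjusted p = 0.53). Of its other tested genes Slc22a18 (-2.28, adjusted p = 0.022, lost with the WT HFD libraries averaged), Osbpl5 (-1.37, adjusted p = 0.00024) and Cd81 (-0.74, adjusted p = 0.0015) were called lower on HFD, of which Slc22a18 and Cd81 were lost with libraries scaled to the same total. Kcnq1, Tssc4 and Tspan32 were not called, and Phlda2 and Ascl2 were too low to be tested.

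Dlk1 (ENSMUSG00000040856) encodes a membrane protein that restrains preadipocyte differentiation and is paternally expressed, and Meg3 (ENSMUSG00000021268) is a maternally expressed long noncoding RNA 77.7 kb from it on chromosome 12. Dlk1 (109452823 to 109463336, plus strand) held 15 and 48 normalized counts in WT, against 12 and 0 in the knockout on SD, and 8 and 4 against 6 and 0 on HFD. It was low throughout, and no difference was called. On SD the knockout effect was -2.96 (adjusted p = 0.3) and on HFD it was -1.34 (adjusted p = 0.48), each with a standard error of 1.38. With libraries at 0 these sizes depend on the processing. Over the alternatives other than leaving out a library they ran from -4.62 to -1.50 on SD and from -2.88 to -0.39 on HFD. The libraries of one group differed widely, as the 15 and 48 of WT on SD show.

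Meg3 (109541001 to 109571726, plus strand) held 820 and 725 normalized counts in WT, against 927 and 319 in the knockout on SD. On HFD it held 266 and 278 in WT and 1200 and 1497 in the knockout, the lowest and the highest levels of the 4 groups. The SD difference was -0.50 (standard error 0.35, adjusted p = 0.53). It was called without the first knockout library on SD (-1.27, adjusted p = 0.0092) and was 0.27 without the second. The HFD difference was 2.30 (standard error 0.35, adjusted p = 0.00038), a 4.91-fold rise that held under all alternatives. In WT, HFD lowered Meg3 2.83-fold (log2 fold change -1.50, standard error 0.35, adjusted p = 0.013). Averaging the WT HFD libraries ended this call (adjusted p = 0.11), as did leaving out any 1 of the 4 WT libraries (0.068 to 0.12) and testing without a filter on low values (0.077). In Ad-Yap/Taz-KO mice the diet effect was 1.30 (adjusted p = 0.1), with a range from 0.53 to 2.07 over the libraries left out, and it was called without the first knockout library on SD (2.07, adjusted p = 0.0014).

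The other genes of the domain were read beside Meg3. Rtl1, a paternally expressed retrotransposon-derived gene, held 106 and 79 normalized counts in WT, against 51 and 42 in the knockout on SD, and 33 and 38 against 197 and 161 on HFD. Rian, a maternal host of small nucleolar RNAs, held 501 and 296 against 462 and 254 on SD and 206 and 205 against 486 and 776 on HFD. For Mirg, a maternal host of microRNAs, the values were 83 and 68 against 80 and 28, then 22 and 21 against 116 and 148. All 3 thus had, like Meg3, their lowest group mean in WT and their highest in the knockout on HFD, though for Rian the first knockout library there lay within the WT range on SD. The HFD differences were 2.30 for Rtl1 (adjusted p = 0.00055), 1.57 for Rian (adjusted p = 0.0027) and 2.55 for Mirg (adjusted p = 0.0019), and all 3 held in 20 of 20 alternatives. None of the 3 was called in the knockout on SD, with adjusted p from 0.2 to 0.85. Rtl1 has a maternal transcript on the opposite strand, and reads of both may be mixed in its value. Dio3, which encodes a deiodinase that inactivates thyroid hormone, held 10 and 16 in WT on SD, 6 and 4 in Ad-Yap/Taz-KO on SD, 0 and 0 in WT on HFD and 3 and 3 in Ad-Yap/Taz-KO on HFD. Meg3, Rtl1, Rian and Mirg were thus higher in the knockout on HFD, as was the sum of the fibroblast and progenitor markers. That sum was 26661 to 27004 in WT and 82840 to 87868 in the knockout. Of these 11 markers 8 were called higher in the knockout on HFD. For diet in WT 4 were called lower and 1 higher, and in the interaction of genotype and diet 8 higher and 1 lower. Other cell type markers moved as well: 8 of 8 macrophage and 2 of 7 endothelial markers were called higher on HFD, 8 of 8 and 4 of 7 were called lower by HFD in WT, and 8 of 8 and 6 of 7 were called higher in the interaction of genotype and diet. The part of these markers in this result was not tested.

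**Figure D2:**
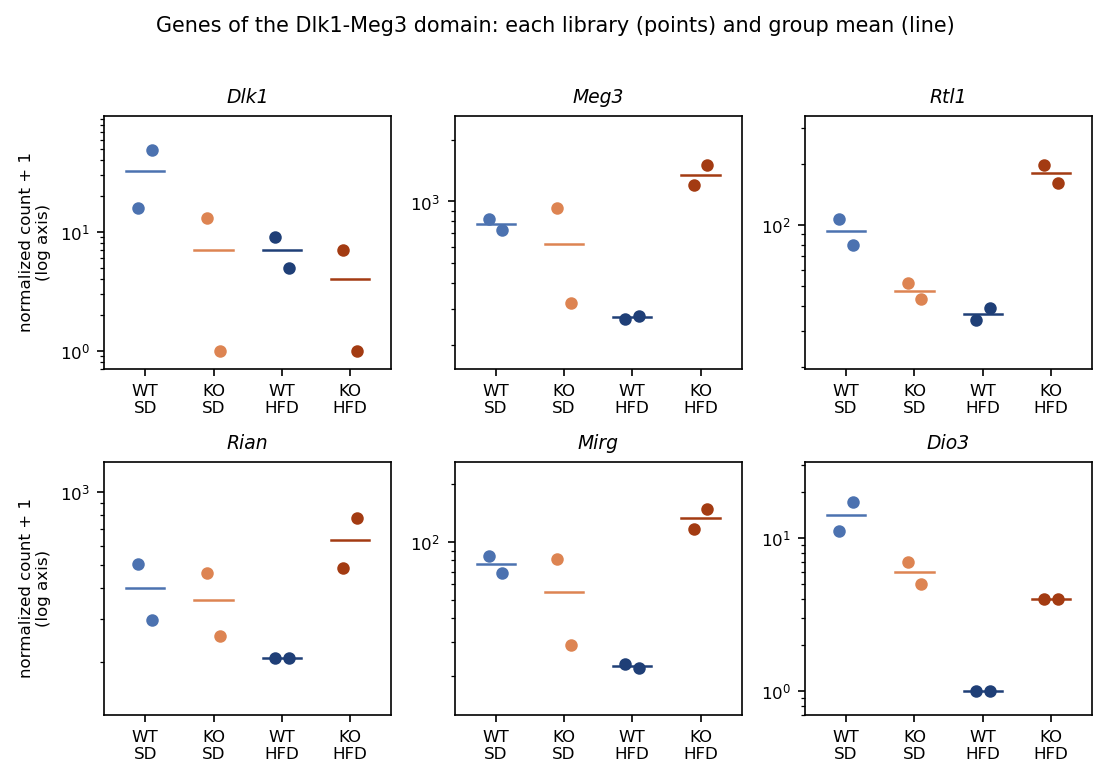
Normalized count + 1 of 6 genes of the Dlk1-Meg3 domain on a log axis, by group (KO, Ad-Yap/Taz-KO), where each point is 1 library and each line the mean of 2. In Meg3, Rtl1, Rian and Mirg the WT libraries on HFD are the lowest group mean and the knockout libraries on HFD the highest, whereas Dlk1 and Dio3 are near 0 in several libraries.

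Counted over the members, the knockout on SD gave 4 called of 10, all lower, where 4.71% of all 18800 tested genes were called, 1.50% lower. Nnat and Zim1 are 2 of these 4 and were known beforehand, so the count is a description and no independent evidence. The median log2 fold change of the members was -1.41 and that of all tested genes -0.01. On HFD 6 of 10 were called, 4 lower and 2 higher, where 32.2% of all tested genes were called, 15.1% lower and 17.1% higher. The medians were -1.07 and 0.09. Nnat, Peg3 and Plagl1 were lower on both diets, Peg10 on HFD and Zim1 on SD, and Igf2 and Meg3 were higher on HFD. Of the 6 paternally expressed members 4 were called lower on HFD and Igf2 higher, and of the 4 maternally expressed members only Meg3 was called. For diet in WT, 3 of 10 were called (Peg3 higher, Igf2 and Meg3 lower) beside 18.0% of all tested genes (8.74% higher, 9.22% lower), but 0 of 10 with the WT HFD libraries averaged, where 210 genes were called higher and 329 lower of 18800. For diet in Ad-Yap/Taz-KO mice 1 of 10 was called, Zim1, higher, beside 1.07% of all tested genes (0.383% higher, 0.691% lower).

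Whether the knockout effect differed between the diets was tested by the interaction of genotype and diet. It was called for 5 of 10 members, 4 higher and 1 lower, beside 17.4% of all tested genes (8.69% higher, 8.73% lower). The effect on HFD exceeded that on SD by 2.80 on the log2 scale in Meg3 (standard error 0.50, adjusted p = 0.0059) and by 2.99 in Igf2 (standard error 0.71, adjusted p = 0.016). For Zim1 the effect on HFD minus that on SD was 2.29 (standard error 0.70, adjusted p = 0.041), with a smaller fall on HFD (-0.80) than on SD (-3.09). For Peg3 the effect on HFD minus that on SD was -1.05 (standard error 0.28, adjusted p = 0.024), and with libraries scaled to the same total it was -0.62 (adjusted p = 0.11). The fifth was H19 (adjusted p = 0.019), whose fitted size depends on the libraries at 0 and ran from 2.76 to 11.7 with the pseudocounts of 8 and 0.1. With the WT HFD libraries averaged only Meg3 stayed called (2.80, adjusted p = 0.042), and without a filter on low values none did. Over all genes the interaction was then called for 369 higher and 148 lower of 18800 with averaging, and for 400 higher and 321 lower of 30387 without a filter, so calls were lost across all genes as well. With each of the 8 libraries left out in turn, the call held 8 times for Meg3, 4 times for H19, 3 times for Igf2 and 2 times each for Peg3 and Zim1. Leaving out either WT library on SD, or the second knockout library on HFD, ended it for all of these but Meg3, with adjusted p from 0.053 to 0.15. The calls across the 5 contrasts share libraries and are not independent of each other.

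**Figure D3:**
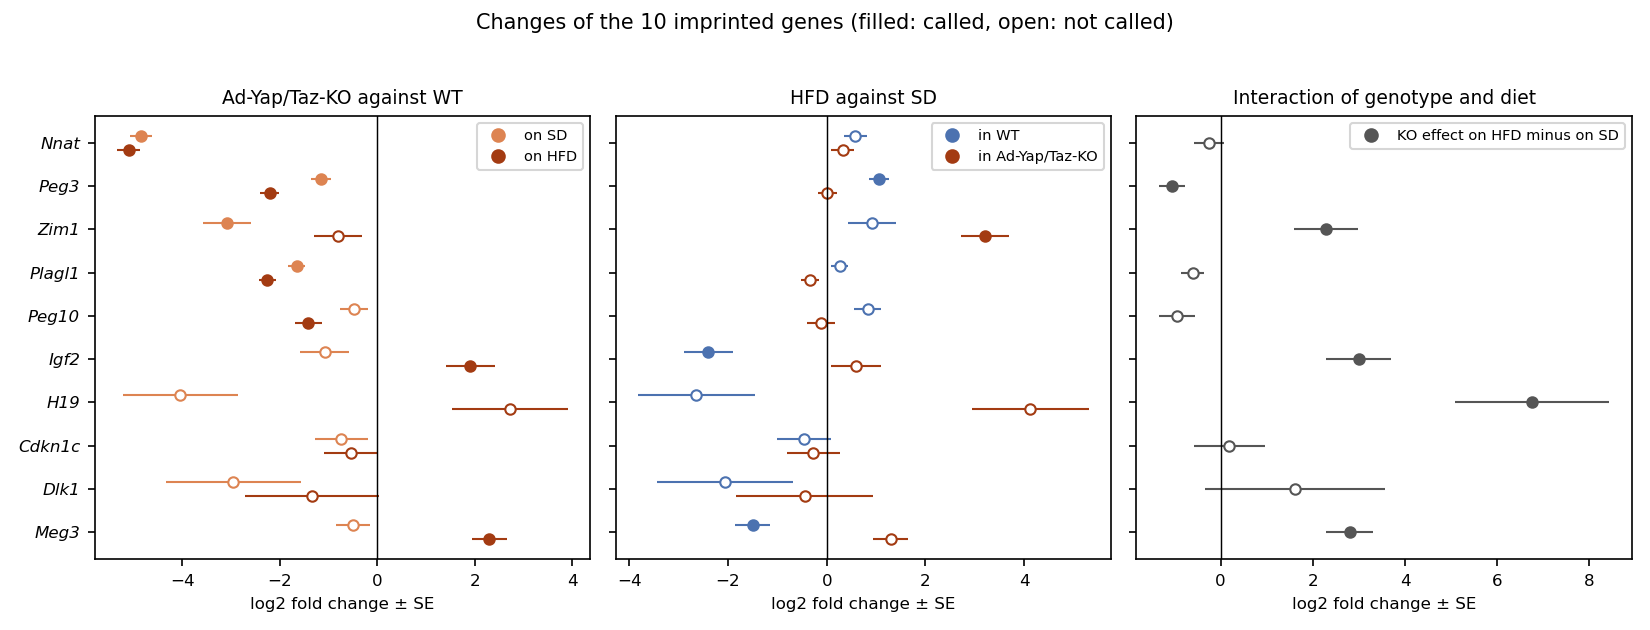
Log2 fold changes of the 10 imprinted genes with their standard errors, for Ad-Yap/Taz-KO against WT on SD and HFD (left), HFD against SD in each genotype (middle) and the interaction of genotype and diet (right), where filled points are called and open points not. Nnat lies at -4.85 and -5.11 on SD and HFD, and Meg3 at -0.50 and 2.30.

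A further list of 56 imprinted genes was set beside the members, without regard to whether each is imprinted in fat cells. Of these, 53 were in the table and 47 were tested. On SD 2 of 47 were called in the knockout, both lower, beside 4.71% of all tested genes, 1.50% lower. On HFD 25 of 47 were called, 18 lower and 7 higher, beside 32.2% of all tested genes, 15.1% lower and 17.1% higher. With the WT HFD libraries averaged these were 15 lower and 5 higher, the lost ones being Asb4, Igf2r, Slc22a18, Slc22a2 and Trappc9, beside 1531 lower and 1914 higher of all 18800 genes. The median log2 fold change on HFD was -0.07, against 0.09 for all tested genes. With libraries scaled to the same total the medians were 0.32 and 0.47, so both moved alike, and 12 of the list were called lower and 10 higher. Both genes called on SD were Mest and Klf14. Mest, a paternally expressed hydrolase-like gene of growing fat, held 1375 and 1567 normalized counts against 295 and 220 on SD and 8231 and 8586 against 214 and 306 on HFD. Klf14, a transcription factor gene of the same domain, held 14 and 11 against 0 and 0, then 329 and 239 against 0 and 0, and its call on SD held in 7 of 20 alternatives.

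Among the others lower on HFD were Copg2, a coat protein gene beside Mest (-1.81, adjusted p = 3.3e-05), and Smoc1, a gene for a secreted matrix protein (-2.30, adjusted p = 7.3e-06). Snrpn, a splicing protein gene of the Prader-Willi region, held 247 and 236 normalized counts in WT, against 66 and 51 in the knockout on HFD (-2.04, adjusted p = 0.00056). Ndn, which encodes the growth suppressor necdin, held 393 and 542 against 175 and 181 (-1.37, adjusted p = 0.0015). Slc22a3, an organic cation transporter gene, fell from 2733 and 2651 to 921 and 388 (-2.17, adjusted p = 0.00013). Also called lower were Slc22a2 (-3.20, adjusted p = 0.022), Ube3a (-0.75, adjusted p = 0.0023), Gnas (-0.84, adjusted p = 0.0011), Peg13 (-0.82, adjusted p = 0.0017) and Trappc9 (-0.68, adjusted p = 0.031, called in 9 of 20 alternatives). With libraries scaled to the same total, Ube3a, Gnas, Peg13 and Trappc9 were not called, and under quantile scaling Ube3a, Gnas and Trappc9 were not.

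The higher genes on HFD, beside Rtl1, Rian, Mirg and Asb4, were Dcn, Airn and Igf2r. Dcn, which encodes the matrix proteoglycan decorin and is a product of fibroblasts, held 3307 and 3488 normalized counts in WT, against 9717 and 13120 in the knockout (1.73, adjusted p = 4.2e-05). Airn, the paternal noncoding RNA that overlaps Igf2r on the opposite strand, held 106 and 158 against 473 and 609 (2.04, adjusted p = 9.2e-05). Igf2r, a receptor that clears IGF2, held 4577 and 4512 against 7026 and 6849 (0.61, adjusted p = 0.0065). Reads of Airn and Igf2r cannot be told apart where they overlap if strand was not used.

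**Figure D4:**
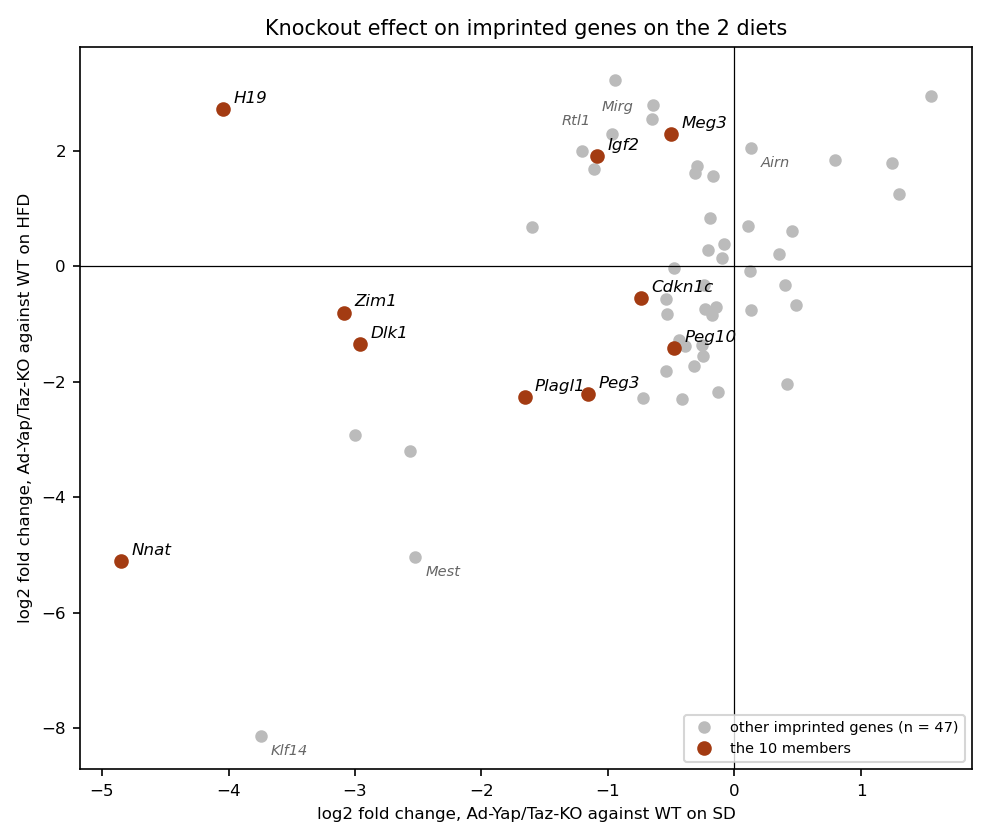
Log2 fold change of Ad-Yap/Taz-KO against WT on SD (horizontal) and on HFD (vertical) for the 10 members (red) and 47 other imprinted genes (grey), 1 point per gene. Nnat, Plagl1 and Peg3 lie below 0 on both axes, and H19, Igf2 and Meg3 lie below 0 on SD and above 0 on HFD.

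Genes that set, keep or read imprints were another list of 14, of which 13 were tested. On HFD 4 were called higher in the knockout and 1 lower, beside 17.1% and 15.1% of all tested genes, a total share near the background of 32.2%. With the WT HFD libraries averaged 3 were higher and 0 lower, with Dnmt3a and Zfp445 lost. Dnmt1, the maintenance DNA methyltransferase, rose from 502 and 512 to 1055 and 1000 normalized counts (1.02, adjusted p = 6e-04). Uhrf1, its partner at replicating DNA, rose from 77 and 27 to 260 and 254 (2.46, adjusted p = 8e-04), and Dnmt3a, a de novo methyltransferase (0.66, adjusted p = 0.0075), and Arid4a (0.80, adjusted p = 0.0019) rose as well. Zfp445, a zinc finger protein that guards imprints, was lower (-0.72, adjusted p = 0.0086), a call also lost with libraries scaled to the same total and without the second WT library on HFD. On SD only Dnmt3a was called (0.63, adjusted p = 0.044, in 7 of 20 alternatives). In WT, HFD lowered Dnmt3b (-1.34, adjusted p = 0.026). Dnmt3l, at 5 and 0 against 19 and 52, was called higher (adjusted p = 0.023). Both calls were lost with the WT HFD libraries averaged, without either of them and without the second WT library on SD. The Dnmt3b call was also lost without the first WT library on SD and under quantile scaling, and the Dnmt3l call without a filter on low values. Dnmt1 and Uhrf1 are used in dividing cells. On HFD 8 of 8 macrophage and 8 of 11 progenitor markers were called higher beside them. On SD 8 of 8 macrophage and 1 of 11 progenitor markers were called higher. Dnmt1 held 531 and 486 in WT, against 602 and 665 in the knockout (0.32, adjusted p = 0.37, not called). Uhrf1 held 76 and 79 against 125 and 118 (0.64, adjusted p = 0.49, not called). The genotypes thus did not overlap in either gene. For diet in WT 8 of 8 macrophage markers were called lower, and of 11 progenitor markers 4 lower and 1 higher. Uhrf1 held 77 and 27 on HFD (-0.75, adjusted p = 0.23), and Dnmt1 held 531 and 486 on SD and 502 and 512 on HFD. The part of these markers was not tested.

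The genes whose pattern over the 8 libraries was most like that of Nnat were Sncg, Rtn2, Wwtr1, Triobp and Stard13, with Pearson correlations of 0.989 to 0.980 on the log2 scale among 12092 genes (mean of 50 or more). Sncg, which encodes gamma-synuclein and is abundant in fat cells, held 10237 to 23722 normalized counts in WT and 568 to 769 in the knockout. Wwtr1 is one of the 2 deleted genes. For H19 they were Slc20a1, Il17rd, Hid1, Nfatc2ip and Flt3l, with correlations of 0.943 to 0.921, and their ranges were narrow, such as 800 to 1293 for Slc20a1. The libraries share 4 group levels, so these values describe likeness only and carry no test.

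The order of the members per kilobase of exon in WT on SD was Nnat (3348 normalized counts per kilobase), Peg3 (388), Plagl1 (302), Peg10 (143), Cdkn1c (91.0), Meg3 (42.7), Igf2 (26.9), Zim1 (8.84), H19 (6.30) and Dlk1 (5.57). Of neighbours in this order only H19 and Dlk1 had library values that overlapped. In the knockout on HFD the order began with Peg3 (175), Nnat (148), Peg10 (98.0), Plagl1 (76.4) and Meg3 (74.6), and each of these overlapped with the next.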

How the data were processed

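RNA of white adipocytes from both genotypes on both diets (4 groups, 2 libraries each, from separate mice by the study's own count) was depleted of ribosomal RNA and sequenced single-end. The authors trimmed reads, aligned them to GRCm38 with STAR 2.5.2b and counted reads per gene with featureCounts 1.5.1, leaving out reads over several genes or places. The deposited values are a score: counts divided by a size factor and rounded by the authors, with DESeq2 1.14.1 named in their processing notes. Whole reads could not be recovered for each gene, so no count model was run here. Reads carry no molecular identifiers, and intervals and floors cover counting error only. The floor at 0 is 3 counts.

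Groups followed the sample labels. Genes with a mean of at least 5 were tested with limma 3.58.1 in R 4.3.3 (trend, pseudocount of 1, 4 group means, 4 residual and 8.59 prior degrees of freedom), which gave all adjusted p-values. The fit was tested on simulated data. The members and lists were chosen with earlier results of these data known, Nnat and Zim1 among them. Named were the members, called genes of the lists, neighbours of a member in its domain, targeted genes, and the 5 genes most like Nnat and H19. Positions come from the table, overlaps from GENCODE vM21 (30259 of 30387 identifiers found), and promoters from RefSeq, found for 7 of 10 members. Alternatives were a pseudocount of 0.1 or 8, other filters (none, or a mean of 50), totals made equal, upper-quartile or quantile scaling, fits of 2 groups, robust eBayes, a replicate block, averaged WT HFD libraries and leaving out each library. A block with crossed numbers was chosen after seeing the data.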

Additional observations from a re-analysis of the deposited data

Results flagged for a closer look

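The knockout effect differed between the diets, by the interaction test of limma, in 5 members. The difference on the log2 scale (HFD minus SD) was 2.99 for Igf2, 2.80 for Meg3 and 2.29 for Zim1, and -1.05 for Peg3. For H19 the fitted value was 6.76, but with libraries at 0 its size depends on the pseudocount, with 2.76 at 8 and 11.7 at 0.1, and on the library left out, from 5.36 to 8.17. With the WT HFD libraries averaged, adjusted p was 0.063 for Igf2, 0.042 for Meg3, 0.12 for Zim1, 0.1 for Peg3 and 0.061 for H19.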

How the results depend on the processing

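Of 50 results (10 members, 5 contrasts) 19 were called, and 7 of these held under all 20 alternatives: Nnat, Peg3, Plagl1, Peg10 and Meg3 in the knockout on HFD, and Nnat and Plagl1 on SD. No called member result changed sign. Members called in the knockout numbered 6 on HFD (5 to 6 with each library left out) and 4 on SD (3 to 6). For diet in WT the 3 members called became 0 with the WT HFD libraries averaged and 0 to 4 with each library left out, where leaving out any WT library gave 0 or 1. For diet in the knockout the 1 member called became 0 without a filter and with 2 groups fitted, and 0 to 2 with each library left out. For the interaction the 5 members called became 0 without a filter, 3 under quantile scaling, 1 with the WT HFD libraries averaged and 1 to 7 with each library left out. Over all genes, calls of the interaction were 1633 higher and 1641 lower of 18800 in the fit reported, 400 and 321 of 30387 without a filter, 1276 and 937 under quantile scaling and 369 and 148 with averaging.

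Among the other imprinted genes, the 2 called in the knockout on SD became 1 with a pseudocount of 0.1 or 8, no filter, a mean of 50, 2 groups fitted, the replicate block, averaged WT HFD libraries, and 1 to 2 with each library left out. For diet in WT the 14 of 47 called (18.0% of all tested genes) became 9 under quantile scaling, 1 with averaged libraries and 2 to 16 with each left out. For diet in the knockout the 2 of 47 called (1.07% of all tested genes) became 4 with a pseudocount of 8, 0 without a filter, with 2 groups or averaged libraries, 1 under the replicate block and 0 to 6 with each left out. For the interaction the 18 of 47 called (17.4% of all tested genes) became 7 without a filter, 5 with averaged libraries and 5 to 18 with each left out. Over all genes, diet in WT gave 873 higher and 1313 lower under quantile scaling and 210 and 329 with averaged libraries. Diet in the knockout gave 137 and 193 with a pseudocount of 8, 1 and 2 without a filter, 42 and 70 under the replicate block and 8 and 20 with averaged libraries. The cause was not tested.

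Results that changed sign were not called in the fit reported, though leaving out the first knockout library on SD gave calls for Meg3 and Cdkn1c on SD. Plagl1 for diet in WT was -0.15 with equal totals and -0.0025 under quantile scaling. The interaction was 0.17 and 0.028 for Nnat in the same order, and -0.024 for Cdkn1c under quantile scaling. With each library left out, the knockout effect ranged from -2.75 to 0.061 for Dlk1 on HFD, and on SD from -1.27 to 0.27 for Meg3 and from -1.89 to 0.41 for Cdkn1c. The diet effect in the knockout ranged from -0.022 to 0.67 for Nnat, -0.14 to 1.33 for Igf2, -2.30 to 1.40 for Dlk1, -0.35 to 0.37 for Peg3, -0.54 to 0.31 for Peg10 and -1.42 to 0.88 for Cdkn1c. The interaction ranged from -0.60 to 0.091 for Nnat, -0.24 to 3.46 for Dlk1 and -0.96 to 1.34 for Cdkn1c.

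Equal totals moved the median of all genes from 0.09 to 0.47 in the knockout on HFD, with 4617 higher and 1367 lower against 3213 and 2840, from -0.08 to -0.48 for diet in WT (470 and 3567 against 1643 and 1734) and from 0.10 to 0.52 for the interaction (2610 and 619 against 1633 and 1641). Members stayed at 2 higher and 4 lower on HFD. Same-numbered libraries did not deviate together (correlations from -0.30 to 0.11). This gave no sign of pairing by number, but with 2 libraries per group it cannot exclude pairing. The replicate block ended 1 member call, the interaction of Zim1 (2.29, adjusted p = 0.058 by limma). The crossed pairing, chosen after seeing the data, gave 126 higher and 218 lower for diet in the knockout against 42 and 70 under the block. Dlk1 and H19 were under 50 normalized counts in every library. Genes of 5 to 20 normalized counts differed between libraries of a group by 4.64 to 6.28 times the Poisson expectation, so counting error was not the only limit.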
